A study of Mus musculus with 12 samples.

Results

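Type I interferon response genes are the genes that cells switch on when interferon alpha or beta binds its receptor. The group described here holds 37 such mouse genes, listed by symbol. Of the 37, 34 had a probe set (the group of short probes that measures a transcript on these arrays) that named 1 gene only, and for each of these the brightest such probe set by its mean over the 12 arrays was used. Isg15, Oas1g and Ifi44 had none. Of the 34, 32 passed the filter on dim probe sets, which required a signal above the median of its own array on at least 3 arrays, and were fitted together with all 11325 genes that passed, of 18193 genes named on the array. Oasl2 and Mx2 lay below the median on all 12 arrays.

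In the type I interferon pathway, the receptor chains IFNAR1 and IFNAR2 activate STAT2, which joins IRF9 in a complex that binds the interferon-stimulated response element (ISRE) in target promoters. The induced genes encode sensors of viral RNA, enzymes that degrade or edit RNA or stop translation, proteins that trap virus particles, and feedback inhibitors such as USP18. T cells carry the receptor and respond to these interferons, and the induced genes are commonly read as a record of interferon exposure.

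The RNA came from splenocytes of DBA/2 mice aged 10 weeks, cultured for 9 days with cells of KLN-205, which is an established line from a squamous lung carcinoma of the mouse, and measured on 12 single-colour arrays, 3 in each of 4 groups. The SEMA6A group had tumour cells that overexpressed SEMA6A, a semaphorin anchored in the membrane. The SEMA3A group received purified SEMA3A, a secreted semaphorin, at 10 µg/mL, and the group with both had SEMA6A-overexpressing tumour cells and added SEMA3A (SEMA6A+SEMA3A). The control group had neither. In all 4 groups, the control included, the tumour cells carried the SEMA3A knockdown and interleukin-2 was given at 100 units/mL every 3 days. The labels give neither the number of knockdown or overexpressing clones nor the origin of the 3 replicates (other cultures or other mice), and p-values therefore measure only the spread among these samples. The RNA is that of a mixed culture, in which fewer cells of a type and less RNA per cell cannot be told apart.

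The promoters of the group show how its members differ in the element that the interferon complex reads. Sequences of the 250 bases before the transcription start, from RefSeq on GRCm38.p6, were found for 28 of the 37 members. The core of the ISRE, searched as GAAA, 2 bases of any kind and GAAA on both strands with overlapping matches counted separately, was present in 10 of these 28, in Bst2, Ifit1, Ifit3, Isg15, Oas1a, Oas1g, Oas3, Rsad2, Stat2 and Trim30a, and in 3.46% of all 27025 genes with a promoter in that table. Shown are 6 promoters here because their genes carry values described after them, 4 with a match and 2 without one, read 5′ to 3′ on the strand of the gene with the ISRE core in capitals. They are Ifit1 at chr19:34640639-34640888 (plus strand), Ifit3 at chr19:34583279-34583528 (plus strand), Bst2 at chr8:71537473-71537722 (minus strand), Oas3 at chr5:120777660-120777909 (minus strand), Samd9l at chr6:3399572-3399821 (minus strand) and Lgals3bp at chr11:118401960-118402209 (minus strand).
Ifit1: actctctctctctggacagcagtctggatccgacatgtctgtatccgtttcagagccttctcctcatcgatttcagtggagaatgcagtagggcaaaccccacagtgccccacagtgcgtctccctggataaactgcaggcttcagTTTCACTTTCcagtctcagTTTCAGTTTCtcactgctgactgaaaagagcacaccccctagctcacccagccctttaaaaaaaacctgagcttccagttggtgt
Ifit3: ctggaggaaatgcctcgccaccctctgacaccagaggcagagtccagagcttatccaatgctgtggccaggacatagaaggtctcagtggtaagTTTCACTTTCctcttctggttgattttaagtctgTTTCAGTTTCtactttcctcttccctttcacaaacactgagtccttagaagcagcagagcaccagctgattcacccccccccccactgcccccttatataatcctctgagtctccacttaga
Bst2: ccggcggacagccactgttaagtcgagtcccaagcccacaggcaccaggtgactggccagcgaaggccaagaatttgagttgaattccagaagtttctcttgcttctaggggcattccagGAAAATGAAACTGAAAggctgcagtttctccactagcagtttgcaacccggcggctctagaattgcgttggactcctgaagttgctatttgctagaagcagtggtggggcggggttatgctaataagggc
Oas3: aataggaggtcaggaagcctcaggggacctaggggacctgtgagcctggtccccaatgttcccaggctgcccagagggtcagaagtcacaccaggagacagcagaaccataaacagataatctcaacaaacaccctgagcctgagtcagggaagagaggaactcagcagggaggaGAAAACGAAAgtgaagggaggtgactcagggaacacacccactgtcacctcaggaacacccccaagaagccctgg
Samd9l: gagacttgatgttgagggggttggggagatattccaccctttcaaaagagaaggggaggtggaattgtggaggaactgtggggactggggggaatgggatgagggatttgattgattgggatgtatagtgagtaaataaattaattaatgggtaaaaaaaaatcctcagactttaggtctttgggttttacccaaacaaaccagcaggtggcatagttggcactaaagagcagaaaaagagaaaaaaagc
Lgals3bp: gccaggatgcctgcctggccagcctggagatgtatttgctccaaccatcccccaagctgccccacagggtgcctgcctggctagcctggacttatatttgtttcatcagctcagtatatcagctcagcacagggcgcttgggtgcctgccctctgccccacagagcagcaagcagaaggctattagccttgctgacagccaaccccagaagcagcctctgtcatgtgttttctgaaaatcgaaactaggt
Ifit1, Ifit3 and Bst2 each held 2 matches and Oas3 held 1. The windows of Samd9l and Lgals3bp held none, which says only that these letters are not in this window.

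The arrays of the 2 groups that received a single factor were the least alike. Over 11293 genes that are not members, the first principal component held 31.3% of the variance, and its scores were −12.3, 37.7 and 12.8 on the SEMA6A arrays, 20.9, 12.5 and −7.2 on the SEMA3A arrays, −13, −9.75 and −10.8 on the SEMA6A+SEMA3A arrays and −7.24, −14 and −9.63 on the control arrays (replicates 1, 2 and 3). SEMA6A replicates 2 and 3 and SEMA3A replicates 1 and 2 thus stood apart from the other 8. The ratio of the 3' to the 5' control probe sets of the transferrin receptor, a measure of how far RNA was copied towards its 5' end, was 8.39, 35.7 and 23.3 in SEMA6A, 17.2, 17.6 and 18.1 in SEMA3A, 12.2, 5.93 and 11.2 in SEMA6A+SEMA3A and 6.82, 8.41 and 9.34 in control. The same ratio for Gapdh was 1.22 on SEMA6A replicate 2, against 0.767 to 0.818 on the other 11 arrays. For Actb it was 1.23 on SEMA6A replicate 2, against 0.993 to 1.12 on the others. For pyruvate carboxylase it was 6.86, 15.5 and 10.3 in SEMA6A, 6.66, 6.9 and 5.78 in SEMA3A, 4.54, 4.36 and 5.81 in SEMA6A+SEMA3A and 8.26, 7.8 and 7.01 in control. Only the transferrin receptor ratio was thus higher on all SEMA3A arrays than on all control arrays. The part of these measures in the differences below was not tested.

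Most interferon response genes had signals above the array median in these cultures, which is not a detection call. Signals differed widely between probe sets and cannot be compared as amounts of RNA. Of the 34 measured members, 27 lay above the median of their array on all 12 arrays, and Ifit1, Ifit3, Cmpk2, Oas2 and Stat2 on 4 to 10 of them. That median was taken over all probe sets, while each member was read on its brightest. On at least 3 arrays, 32 of the 34 members lay above it, as did 11325 of 18193 genes. The share of all genes above it on all 12 arrays was not counted. The plot of centred values shows that the members did not move as a block. The mean of the 32 fitted members, each centred on its own mean over the 12 arrays, was 0.04, −0.2 and 0.05 log2 units in SEMA6A, −0.23, −0.01 and 0.01 in SEMA3A, 0.04, 0.17 and 0.08 in SEMA6A+SEMA3A and 0.05, 0.06 and −0.05 in control. SEMA6A replicate 2 and SEMA3A replicate 1 were the lowest of the 12 arrays and SEMA6A+SEMA3A replicate 2 the highest.

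**Figure D1:**
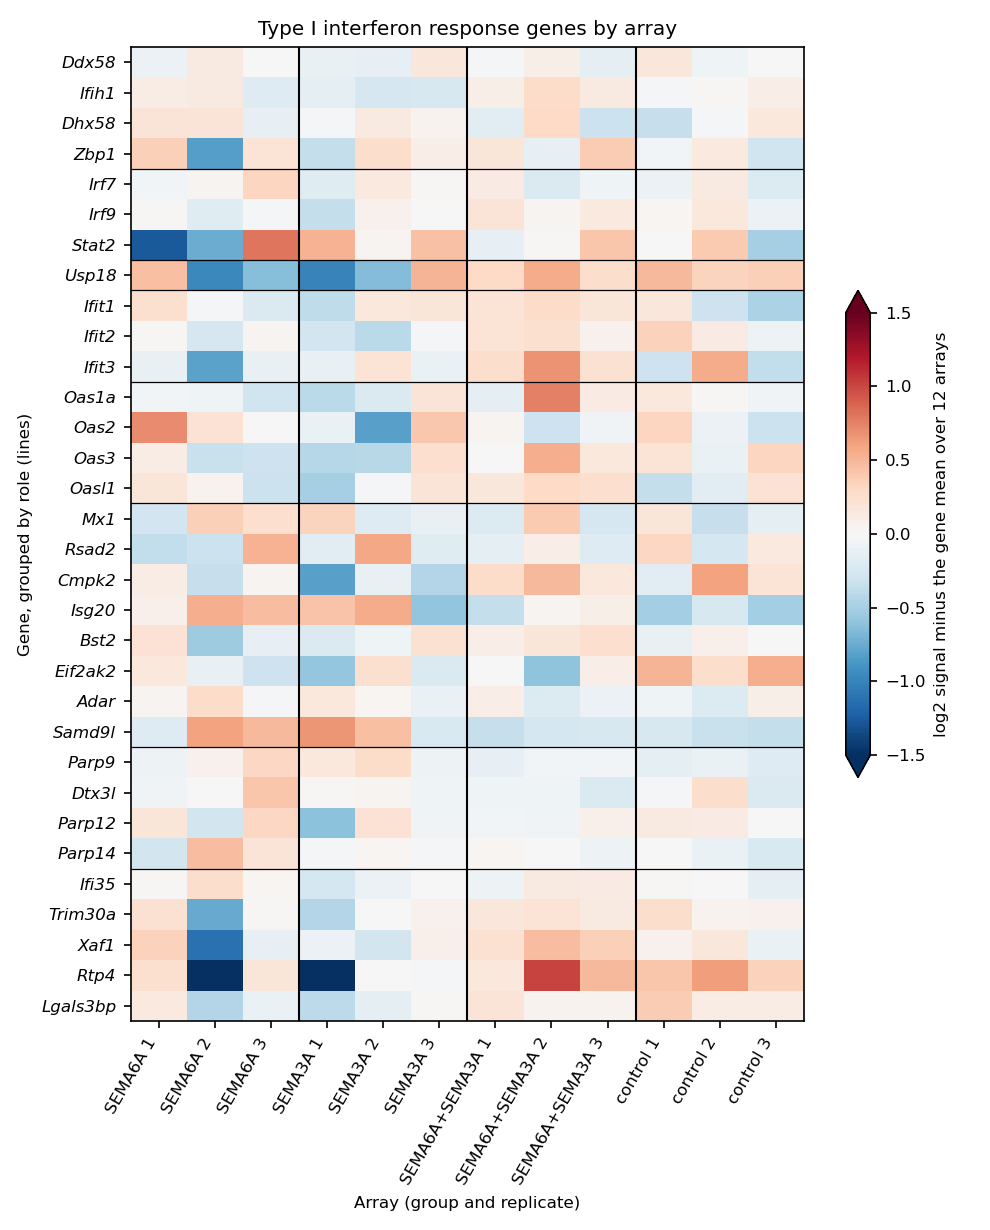
Log2 signal of the 32 fitted members minus each gene's mean over the 12 arrays (colour, limited to 1.5 units either way), genes in rows grouped by role and arrays in columns by group. Samd9l, Isg20 and Parp9 are high, and Usp18, Oas3 and Lgals3bp low, on SEMA6A replicates 2 and 3 and SEMA3A replicates 1 and 2. Trim30a is low on SEMA6A replicate 2 (−0.755) and SEMA3A replicate 1 (−0.444). It is near its mean on SEMA6A replicate 3 (0.023) and SEMA3A replicate 2 (−0.008).

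Spread within groups was wider in the single-factor groups. The median within-group standard deviation of the members was 0.26 log2 units in SEMA6A, 0.26 in SEMA3A, 0.14 in SEMA6A+SEMA3A and 0.15 in control, and over all genes it was 0.22, 0.16, 0.12 and 0.12 in the same 4 groups (n = 3 arrays each). The group with the widest spread was SEMA6A for 15 members, SEMA3A for 10, SEMA6A+SEMA3A for 3 and control for 4. Over all 12 arrays the median standard deviation was 0.275 for members and 0.204 for all genes. These are descriptions of the list and of these arrays.

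Among the effectors, Samd9l is an interferon-induced restriction factor. Its signal was 4128, 7037 and 6577 on the SEMA6A arrays, 7445, 6452 and 4089 on the SEMA3A arrays, 3695, 3932 and 4003 on the SEMA6A+SEMA3A arrays and 3971, 3757 and 3700.4 on the control arrays. All SEMA6A and all SEMA3A arrays lay above all control arrays, SEMA6A replicate 1 and SEMA3A replicate 3 by the least. Isg20, an exonuclease of single-stranded RNA, was at 1125, 1568 and 1474 in SEMA6A, 1444, 1578 and 696 in SEMA3A, 825, 1086 and 1126 in SEMA6A+SEMA3A and 766, 898 and 738 in control. Its SEMA6A arrays lay above all control arrays, while SEMA3A replicate 3 was the lowest of the 12. Parp9, which forms a ubiquitin ligase complex with Dtx3l, was at 2535, 2789 and 3282 in SEMA6A, 2936, 3198 and 2563 in SEMA3A, 2443, 2590.4 and 2606 in SEMA6A+SEMA3A and 2421, 2512 and 2358 in control. Both single-factor groups lay above all control arrays, SEMA6A replicate 1 and SEMA3A replicate 3 by the least.

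Usp18, which removes ISG15 from proteins and blocks the interferon receptor, ran the other way. It was at 966, 359 and 457 in SEMA6A, 353, 457 and 1009.6 in SEMA3A, 861, 1029 and 843 in SEMA6A+SEMA3A and 1015, 893 and 904 in control. SEMA6A replicates 2 and 3 and SEMA3A replicates 1 and 2 were the lowest of the 12, and SEMA6A replicate 1 and SEMA3A replicate 3 lay among the control arrays. Lgals3bp, a secreted glycoprotein that binds galectin-3, was at 2383, 1582 and 2008 in SEMA6A, 1625, 1932 and 2164 in SEMA3A, 2435, 2202 and 2215 in SEMA6A+SEMA3A and 2805, 2337 and 2321 in control. All SEMA3A arrays lay below all control arrays, and SEMA6A replicate 1 lay within them. Trim30a, a TRIM protein that dampens Toll-like receptor signalling in mice, was at 979, 492 and 859.6 in SEMA6A, 614, 839 and 865 in SEMA3A, 933, 949 and 912 in SEMA6A+SEMA3A and 1024, 869 and 875 in control. Oas3, an oligoadenylate synthetase that switches on RNase L, was at 344, 256 and 266 in SEMA6A, 243, 248 and 376 in SEMA3A, 318, 479 and 353 in SEMA6A+SEMA3A and 386, 299 and 403 in control. For both genes the lowest 4 of the 12 arrays were SEMA6A replicates 2 and 3 and SEMA3A replicates 1 and 2. A second probe set of Trim30a, of similar signal, had another order: 849, 783 and 805 in SEMA6A, 643, 636 and 660 in SEMA3A, 883, 1016 and 863 in SEMA6A+SEMA3A and 922, 830.4 and 735 in control. There the SEMA3A arrays were the 3 lowest, and Trim30a is uncertain in SEMA6A.

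These 4 arrays, those that stood apart on the first principal component, were thus the 4 highest for 3 of the 32 fitted members and the 4 lowest for 4. Among all 11325 genes they were the 4 highest for 8.3% and the 4 lowest for 6.15%, so many genes outside the group had the same order of arrays. Samd9l, Isg20 and Parp9 are the 3 and Usp18, Oas3, Trim30a and Lgals3bp the 4. The plot of Samd9l against array measures sets its signal beside the transferrin receptor ratio and the first component.

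**Figure D2:**
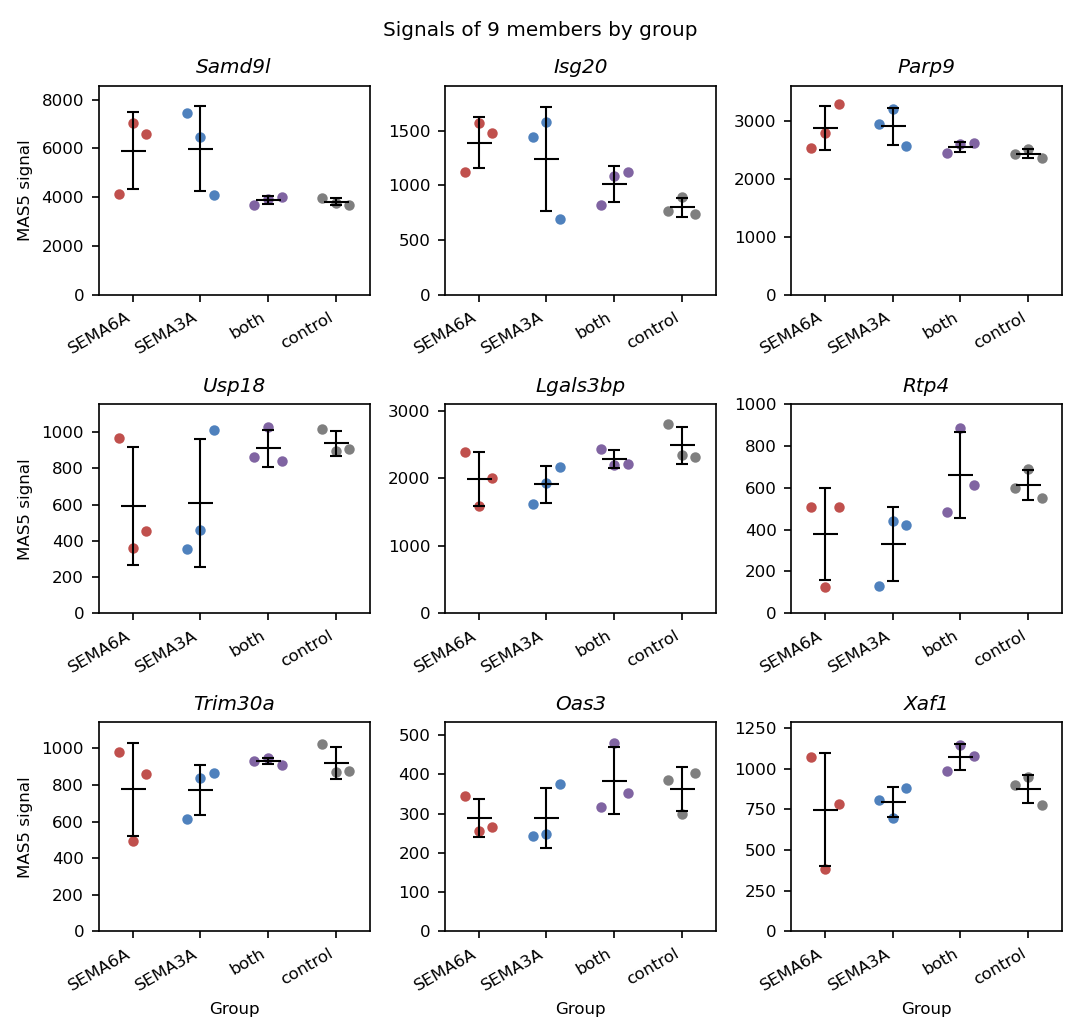
MAS5 signal of 9 members by group (points, arrays; black bar, mean; error bar, SD, n = 3; "both" is SEMA6A+SEMA3A). Samd9l, Isg20 and Parp9 have 2 high arrays in each single-factor group and Usp18 has 2 low ones, at 353 to 457, against 893 to 1015 in control.

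**Figure D3:**
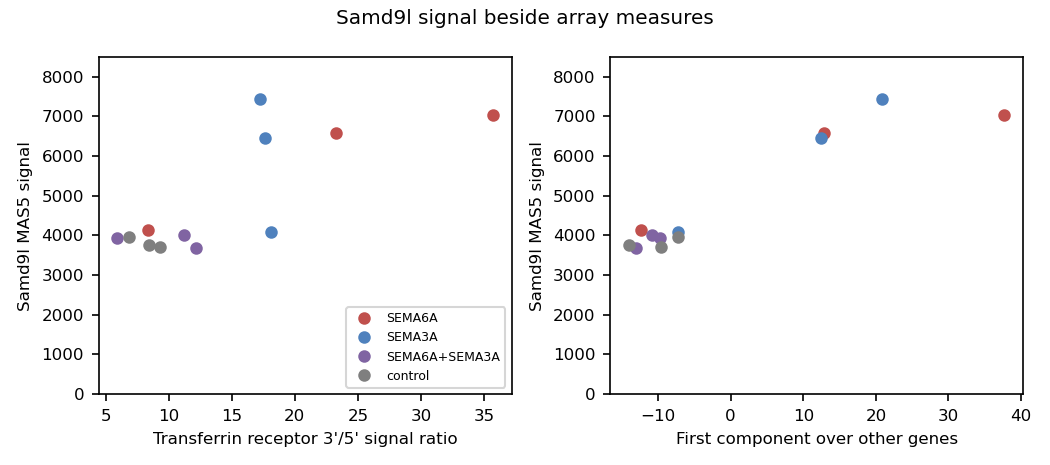
Samd9l signal of each of the 12 arrays against the transferrin receptor 3'/5' ratio and against the first principal component of the genes that are not members, coloured by group. The 4 arrays with the highest scores, 12.5 to 37.7, have the 4 highest Samd9l signals, 6452 to 7445. The order by the transferrin receptor ratio differs. SEMA3A replicate 3 has a ratio of 18.1 and a signal of 4089, against ratios of 17.2 and 17.6 on SEMA3A replicates 1 and 2.

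Rtp4, a chaperone of receptors with antiviral activity, and Xaf1, a pro-apoptotic antagonist of XIAP, had single low arrays. Rtp4 was at 508, 124 and 507 in SEMA6A, 128, 443 and 423 in SEMA3A, 484, 888 and 613 in SEMA6A+SEMA3A and 601, 689 and 551 in control. SEMA6A replicate 2 and SEMA3A replicate 1 were far below the other arrays of their groups, and all 6 single-factor arrays lay below all control arrays. Xaf1 was at 1073, 382 and 784 in SEMA6A, 805, 696 and 883 in SEMA3A, 988, 1146 and 1078 in SEMA6A+SEMA3A and 900.4, 948 and 779 in control. SEMA6A replicate 2 was the lowest, and the SEMA6A+SEMA3A arrays all lay above the control arrays. A second, dimmer probe set of Xaf1 gave differences from control of 0.36, 0.31 and 0.26 log2 units in SEMA6A, SEMA3A and SEMA6A+SEMA3A, against −0.34, −0.14 and 0.31 for the brightest.

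Eif2ak2 encodes PKR, the kinase that halts translation on sensing double-stranded RNA. Its brightest probe set was at 258, 223 and 195 in SEMA6A, 159, 292 and 192 in SEMA3A, 235, 153 and 247 in SEMA6A+SEMA3A and 355, 285 and 346 in control. Apart from SEMA3A replicate 2, every array of the other 3 groups lay below all control arrays. Its other 2 probe sets did not share that: their differences from control were −0.2 and 0.31 log2 units in SEMA6A, 0.12 and 0.18 in SEMA3A and −0.02 and 0.14 in SEMA6A+SEMA3A. Eif2ak2 is therefore uncertain.

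The IFIT proteins bind foreign RNA and block its translation. Ifit1 was at 50.9, 43.1 and 35.6 in SEMA6A, 30, 52.9 and 47.4 in SEMA3A, 54.4, 61.5 and 48.9 in SEMA6A+SEMA3A and 47.3, 29.9 and 23.3 in control. Ifit3 was at 37.1, 18.9 and 40.6 in SEMA6A, 39.9, 55.6 and 36.8 in SEMA3A, 58.2, 84.7 and 52 in SEMA6A+SEMA3A and 29.3, 69.4 and 26.6 in control. Both lay near the array medians of 42.5 to 53.5, so the order of their groups rests on dim signal. Ifit2 was brighter, at 261, 225 and 283 in SEMA6A, 222, 203 and 255 in SEMA3A, 304, 315 and 274 in SEMA6A+SEMA3A and 351, 288 and 244 in control. Its SEMA6A+SEMA3A arrays lay above all SEMA3A arrays and overlapped the control arrays. Cmpk2, a mitochondrial nucleotide kinase, was at 54.3, 38 and 55.7 in SEMA6A, 23.5, 49.4 and 31.6 in SEMA3A, 68.5, 84.9 and 57.2 in SEMA6A+SEMA3A and 41.6, 84.2 and 56.4 in control. The SEMA6A+SEMA3A arrays lay above all arrays of either single-factor group, again near the array median.

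**Figure D4:**
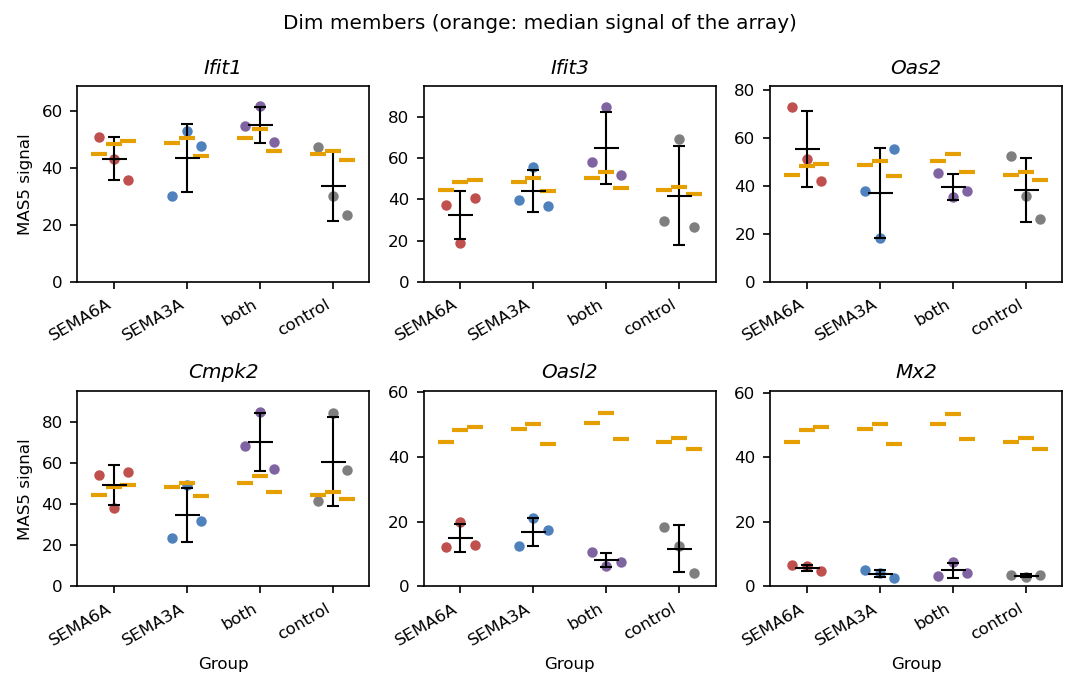
MAS5 signal of 6 dim members by group (points, arrays; black bar, mean; error bar, SD, n = 3; orange, median of each array; "both" is SEMA6A+SEMA3A). Ifit1, Ifit3, Oas2 and Cmpk2 lie around the array median, and Oasl2 and Mx2 lie below it on every array.

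Of the sensors of viral RNA, Ifih1 (MDA5) was at 272, 288 and 231 in SEMA6A, 238, 221 and 206 in SEMA3A, 269, 313 and 276 in SEMA6A+SEMA3A and 258, 257 and 267 in control. All SEMA3A arrays lay below all control and all SEMA6A+SEMA3A arrays. Ddx58 (RIG-I) ranged from 928 to 1179 over the 12 arrays and Dhx58 (LGP2) from 84.1 to 146. Zbp1, a sensor of Z-form nucleic acid, ranged from 262 to 615, with SEMA6A replicate 2 lowest.

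For the transcription factors no difference passed the test in any comparison. Irf7, the factor that amplifies interferon production, averaged 379 ± 59.3 in SEMA6A, 351 ± 43.5 in SEMA3A, 330.2 ± 40.5 in SEMA6A+SEMA3A and 337 ± 44.9 in control (SD, n = 3 each). Irf9, the DNA-binding part of the interferon complex, averaged 569 ± 39.8 in SEMA6A, 561 ± 82.9 in SEMA3A, 646 ± 33.2 in SEMA6A+SEMA3A and 615 ± 61.9 in control. The arrays of Irf7 overlapped between all groups, and those of Irf9 did except that SEMA6A+SEMA3A lay above SEMA6A. Stat2 lay above the median on 10 arrays and ranged from 25.5 to 169.9, with both ends in SEMA6A.

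Bst2, which encodes tetherin and holds budding virus at the cell surface, was at 1894, 1130.3 and 1485 in SEMA6A, 1413, 1552 and 1913 in SEMA3A, 1738, 1835 and 1939 in SEMA6A+SEMA3A and 1528, 1734 and 1620.3 in control. Its SEMA6A+SEMA3A arrays lay above all control arrays, with SEMA6A replicate 2 the lowest of the 12. The GTPase gene Mx1 ranged from 353 to 593, Rsad2 (viperin) from 64 to 149.8 and the RNA editing enzyme gene Adar from 825 to 1187, with overlapping groups. Dtx3l ranged from 1747 to 2685, Parp12 from 190.4 to 371 and Parp14 from 739 to 1265. Ifi35 ranged from 5696 to 8157 on a probe set that may share sequence with other genes. A dimmer probe set gave differences from control of −0.34, −0.05 and 0.14 log2 units in SEMA6A, SEMA3A and SEMA6A+SEMA3A. The brightest gave 0.14, −0.08 and 0.11 there, and the remaining probe set −0.05, −0.19 and −0.13. Ifi35 is therefore uncertain in SEMA6A. Of the oligoadenylate synthetases other than Oas3, Oas1a ranged from 211 to 476, Oasl1 from 52.9 to 106 and Oas2 from 18.1 to 73, with Oas2 above the median on 4 arrays only. Oasl2 ranged from 4.22 to 21 and Mx2 from 2.77 to 7.61.

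SEMA6A was set against control to ask what SEMA6A on the tumour cells did to these genes. None of the 32 members passed the threshold of 0.05 on the adjusted p (limma, Benjamini-Hochberg over 11325 genes), and 0% of all genes did. The 5 smallest p belonged to Isg20, Samd9l, Eif2ak2, Lgals3bp and Parp9. Differences were 0.78 ± 0.25 log2 units (SE) for Isg20, 0.61 ± 0.21 for Samd9l, −0.53 ± 0.23 for Eif2ak2, −0.33 ± 0.15 for Lgals3bp and 0.24 ± 0.11 for Parp9, each with an adjusted p of 0.475. The median over the members was −0.03, against 0.02 over all genes, with 13 members above 0 and 19 below, where 53.3% of all genes lay above 0. At an unadjusted p under 0.05 there were 2 members above 0, where 6.53% of all genes lay, and 2 below 0, where 3.92% lay. After quantile normalization, on which overlap is counted in all comparisons, the 3 arrays of each group did not overlap for 3 members that were higher (Isg20, Parp9 and Samd9l), with 7.36% of all genes doing so, and for 2 that were lower (Eif2ak2 and Rtp4), with 4.77%. Without SEMA6A replicate 1, Samd9l and Usp18 passed: Samd9l was then at 0.86 ± 0.19 with an adjusted p of 0.0353 (limma), the lowest over its 22 alternatives, which reached 0.878. These are 2 of 32 members where 4.55% of all genes passed. Lgals3bp was at −0.18 without SEMA6A replicate 2 and Parp9 at 0.13 without SEMA6A replicate 3.

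SEMA3A was set against control to ask the same of the added protein. Of the 32 members 0 passed, as did 0% of all genes. The 5 smallest p belonged to Samd9l at 0.61 ± 0.21 log2 units, Eif2ak2 at −0.63 ± 0.23, Lgals3bp at −0.38 ± 0.15, Cmpk2 at −0.67 ± 0.26 and Ifit2 at −0.37 ± 0.15, each with an adjusted p of 0.551 in limma. The median was −0.03 over the members and 0.01 over all genes, with 13 above 0 and 19 below, where 51.7% of all genes lay above 0. At an unadjusted p under 0.05, 3 members were higher (background 4.87% of all genes) and 4 lower (3.87%). Arrays did not overlap for 2 members that were higher (9.92% of all genes) and for 4 that were lower (7.31%), Eif2ak2, Ifih1, Lgals3bp and Rtp4; for Eif2ak2 the deposited signals of 1 SEMA3A and 1 control array overlap. SEMA6A and SEMA3A share the control arrays, and their values for Samd9l, 0.61 and 0.61, and Lgals3bp, −0.33 and −0.38, are therefore not independent.

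With both factors, set against control, no member passed. The 5 members with the smallest p were Eif2ak2 at −0.61 ± 0.23 log2 units, Ifit1 at 0.43 ± 0.26, Oasl1 at 0.34 ± 0.23, Ifit3 at 0.43 ± 0.3 and Isg20 at 0.35 ± 0.25, all with an adjusted p of 1 in limma. Of all genes 0% passed. The median over the members was 0.08 and over all genes 0.01, with 22 members above 0 and 10 below, where 53.4% of all genes lay above 0. At an unadjusted p under 0.05, 0 members were higher (2.58% of all genes) and 1, Eif2ak2, was lower (1.53%). Arrays did not overlap for 3 members that were higher (Bst2, Ifit1 and Xaf1), where 8.55% of all genes did so, and for 1 that was lower (6.53%). Samd9l was at 0.03 ± 0.21 and Usp18 at −0.02 ± 0.36, with 95% intervals of −0.43 to 0.49 and −0.8 to 0.76. When 1 array was left out, Eif2ak2 was at −0.39 without SEMA6A+SEMA3A replicate 2 and Oasl1 at 0.21 without control replicate 1. Ifit3 was then at 0.27 without control replicate 3 and at 0.73 without control replicate 2.

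SEMA6A+SEMA3A was also set against each factor alone. Against SEMA3A, no member and 0% of all genes passed. Ifih1 was at 0.37 ± 0.13 log2 units, Cmpk2 at 0.76 ± 0.26, Ifit2 at 0.41 ± 0.15 and Samd9l at −0.58 ± 0.21, each with an adjusted p of 0.404 in limma, and Rtp4 at 1.13 ± 0.5 with 0.432. At an unadjusted p under 0.05, 4 members lay above 0 (5.84% of all genes) and 1 below (5.38%). Arrays did not overlap for 8 members that were higher (Cmpk2, Ifih1, Ifit2, Ifit3, Lgals3bp, Rtp4, Trim30a and Xaf1), where 10.3% of all genes did so, and for 1 that was lower, Samd9l (10.7%). For Ifit3 the deposited signals do overlap, with SEMA3A replicate 2 above SEMA6A+SEMA3A replicate 3. The median over the members was 0.17 and over all genes 0.01, with 20 members above 0, where 51.4% of all genes lay. With a weight per array fitted gene by gene, Samd9l and Usp18 passed, Samd9l with an adjusted p of 0.0302 over a range of 0.0302 to 0.878 across its alternatives. These are 2 of 32 members where 5.47% of all genes passed. Rtp4 was at 0.57 without SEMA3A replicate 1.

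Against SEMA6A, no member and 0% of all genes passed. Samd9l was at −0.58 ± 0.21 log2 units, Xaf1 at 0.65 ± 0.26 and Ifit3 at 0.73 ± 0.3, each with an adjusted p of 0.424 in limma. Usp18 was at 0.76 ± 0.36 (0.441) and Bst2 at 0.33 ± 0.16 (0.444). At an unadjusted p under 0.05, 2 members lay above 0 (5.21% of all genes) and 1 below (6.3%). Arrays did not overlap for 4 members that were higher (Cmpk2, Ifit2, Ifit3 and Irf9), where 6.75% of all genes did so, and for 2 that were lower (Dtx3l and Samd9l), where 7.31% did. For Ifit2 the deposited signals do overlap, with SEMA6A replicate 3 above SEMA6A+SEMA3A replicate 3. The median was 0.17 over the members and 0 over all genes, with 17 members above 0, where 49.8% of all genes lay. Without SEMA6A replicate 1, Samd9l at −0.83 ± 0.19 and Xaf1 at 0.97 ± 0.22 passed, each with an adjusted p of 0.0485 (limma), the lowest of a range that reached 0.77. These are 2 of 32 members where 3.38% of all genes passed. Without SEMA6A replicate 2, Xaf1 was at 0.24, Usp18 at 0.47 and Bst2 at 0.14, and without SEMA6A replicate 1, Usp18 was at 1.17 and Bst2 at 0.51.

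The interaction asks whether the effect of SEMA6A depended on SEMA3A: it is the difference of SEMA6A+SEMA3A from SEMA3A minus the difference of SEMA6A from control. Samd9l had the largest negative value among the members, at −1.19 ± 0.3 log2 units with a 95% interval of −1.84 to −0.54 and an adjusted p of 0.197 in limma. Usp18 was at 1.53 ± 0.51 (95% interval 0.43 to 2.62, adjusted p 0.2), Rtp4 at 2.03 ± 0.71 (0.5 to 3.57, 0.21), Lgals3bp at 0.6 ± 0.21 (0.16 to 1.05, 0.204) and Ifit2 at 0.6 ± 0.21 (0.15 to 1.06, 0.21). None of the 32 members passed and 0% of all genes did. At an unadjusted p under 0.05, 6 members had a positive interaction (Cmpk2, Ifit2, Lgals3bp, Oas3, Rtp4 and Usp18), where 7.82% of all genes did, and 3 had a negative one (Isg20, Parp9 and Samd9l), where 10.2% did. The median over the members was 0.17, against 0 over all genes, with 21 above 0 and 11 below, where 49.5% of all genes lay above 0. Without SEMA6A replicate 1, 6 members passed (Lgals3bp, Parp9, Rtp4, Samd9l, Usp18 and Xaf1), where 11.4% of all genes did. Without SEMA3A replicate 3, 3 members passed (Isg20, Samd9l and Usp18), where 2.5% of all genes did, and with array weights 7, where 16.3% did. Leaving out any 1 of the other 10 arrays gave 0 members.

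**Figure D5:**
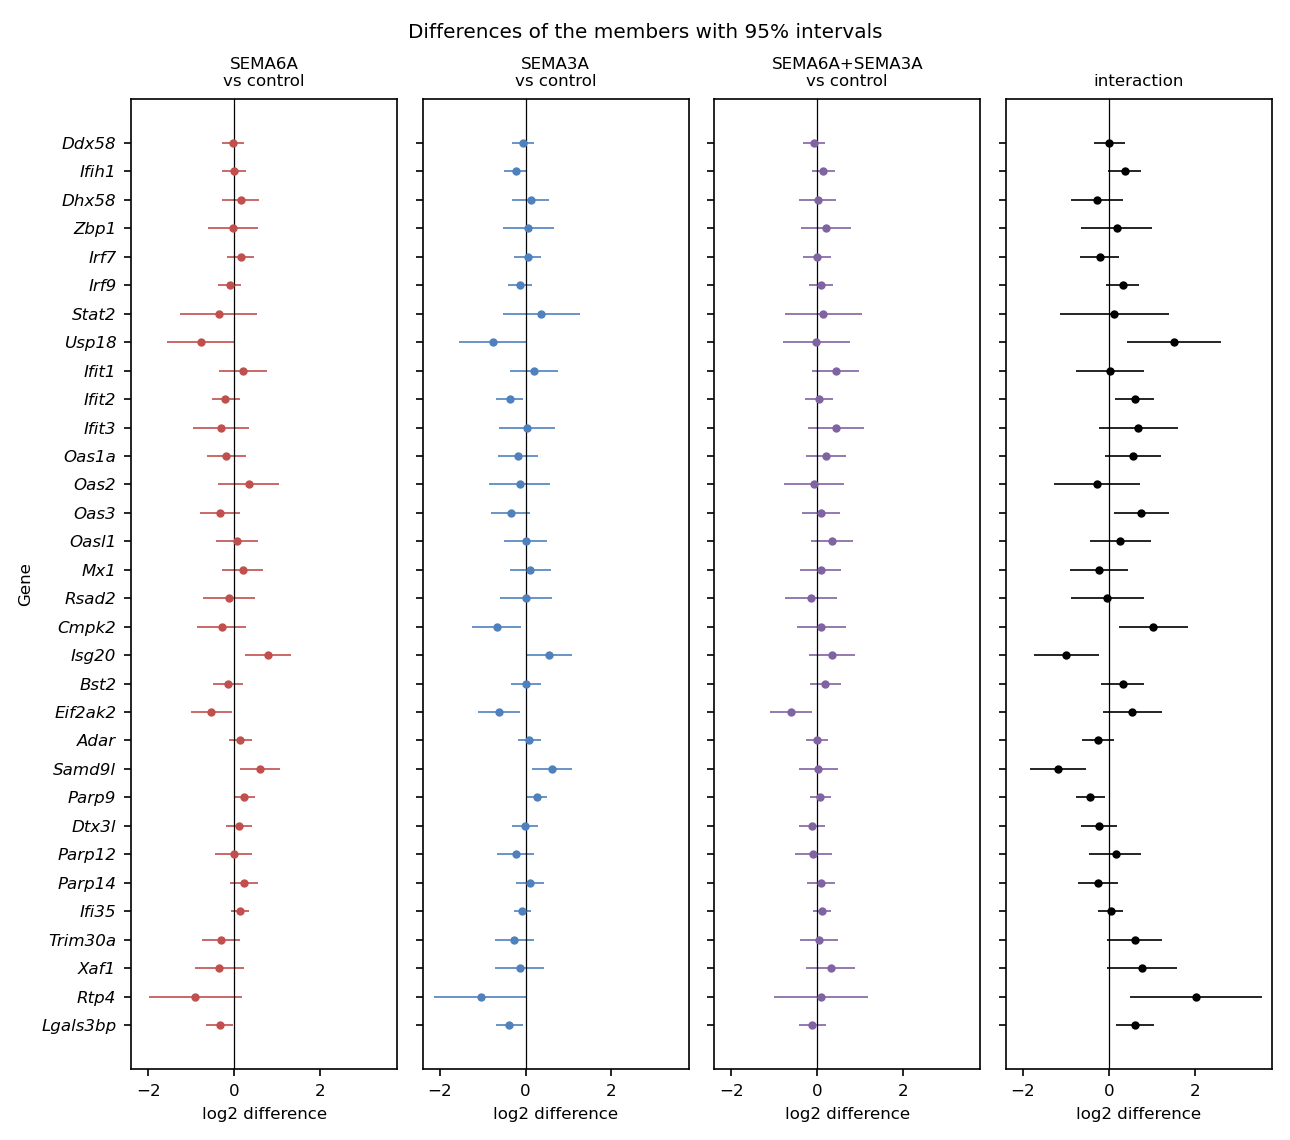
Log2 differences of the 32 fitted members with 95% intervals, in SEMA6A, SEMA3A and SEMA6A+SEMA3A against control and as the interaction. Each point is 1 member; against control, points right of 0 are higher in the group named first. Members with intervals that exclude 0 before adjustment are mixed in sign, from Samd9l at −1.19 to Rtp4 at 2.03 in the interaction.

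The rest of the pathway was read from 6 gene lists, in which no gene passed in either direction in any of the 6 comparisons with the reported settings. The interferon genes themselves were dim: of 15 ligand genes, 9 had a single-gene probe set and 2 passed the filter. Ifnb1, the interferon beta gene, was at 33, 15.9 and 22.7 in SEMA6A, 26.4, 41.9 and 38.3 in SEMA3A, 34.4, 40.2 and 16.8 in SEMA6A+SEMA3A and 27.3, 24.1 and 23.5 in control, below the filter. Ifnz, which encodes interferon zeta, passed the filter and was at 97.1, 127 and 167 in SEMA6A, 75.3, 112.5 and 71 in SEMA3A, 89.6, 83.9 and 68 in SEMA6A+SEMA3A and 55.8, 98.6 and 60.5 in control. The highest arrays were SEMA6A replicates 2 and 3, and the lowest SEMA6A array lay below the highest control array. Its interaction was −0.75 ± 0.32 log2 units with an adjusted p of 0.252 in limma. Ifna1, the other ligand gene that passed, ranged from 24.8 to 76.4, with an interaction of −0.64 ± 0.39 (0.381). The receptor chain gene Ifnar1 was at 381, 541 and 520.2 in SEMA6A, 524, 482 and 462 in SEMA3A, 385, 421 and 375 in SEMA6A+SEMA3A and 461, 411 and 425 in control. Its 4 highest arrays were SEMA6A replicates 2 and 3 and SEMA3A replicates 1 and 2, and its lowest was in SEMA6A+SEMA3A. The interaction of Ifnar1 was −0.41 ± 0.18 log2 units with an adjusted p of 0.252 in limma. Ifnar2 ranged from 762 to 1017. Irf1, an interferon-gamma target that also sits in this pathway, was at 3067, 2343 and 3158 in SEMA6A, 2402, 3289 and 2376 in SEMA3A, 2975, 2693 and 2740.0 in SEMA6A+SEMA3A and 2981, 3202 and 2541 in control, with overlapping groups.

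Of the feedback regulators, Ptpn6, the phosphatase SHP-1, had an interaction of 0.91 ± 0.26 log2 units (adjusted p 0.197 in limma) and Socs1, which inhibits JAK kinases, one of 0.99 ± 0.39 (0.233). Socs1 was at 772, 315 and 717 in SEMA6A, 506, 743 and 865 in SEMA3A, 921, 809 and 813 in SEMA6A+SEMA3A and 961, 966 and 802 in control. SEMA6A replicate 2 was lowest, as for Rtp4 and Xaf1, and the 4 lowest arrays were the same as for Usp18. Without SEMA6A replicate 2 the interaction of Socs1 was 0.58. With the probe set of the largest interquartile range, that of Ptpn6 was 0.35 with an adjusted p of 0.65 in limma, and its adjusted p ranged from 0.0119 to 0.65 over the alternatives. Among the DNA sensing genes, Cgas, the cytosolic DNA sensor, had an interaction of 0.89 ± 0.28 (0.197) and Sting1, its adaptor, one of −0.32 ± 0.15 (0.29), or −0.57 with the probe set of the largest interquartile range. Cgas was at 1042, 727 and 773 in SEMA6A, 687, 716 and 1241 in SEMA3A, 1150.3, 1210.2 and 1171 in SEMA6A+SEMA3A and 1038, 1162 and 1166 in control, an order like that of Usp18: SEMA6A replicates 2 and 3 and SEMA3A replicates 1 and 2 were low. Among the interferon-gamma induced genes, Irgm1 had an interaction of 1 ± 0.44 (0.259) and Gbp3 one of −0.6 ± 0.24 (0.235), and of the other interferon-induced genes Trim30d had 0.66 ± 0.26 (0.231) and Sp110 0.48 ± 0.2 (0.236). Irgm1 was at 0.63 without SEMA6A replicate 2 and Gbp3 at −0.39 without control replicate 3. Like that of Ptpn6, the interactions of Cgas, Ifnz, Irgm1, Ifnar1 and Sting1 passed in some alternative. Their adjusted p in limma ranged from 0.00961 to 0.427, 0.0325 to 0.43, 0.0366 to 0.498, 0.037 to 0.466 and 0.0376 to 0.496. Across the alternatives up to 16.3% of all genes passed for the interaction.

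Cell type markers were summed per array. The markers of macrophages and monocytes summed to 573.524 to 873.202 in SEMA6A, 640.22 to 887.194 in SEMA3A, 658.209 to 672.478 in SEMA6A+SEMA3A and 574.302 to 610.813 in control, with 7 of 8 genes on a single-gene probe set. The macrophage marker Adgre1 was below the filter. Of the 4 fitted genes of the list, none passed the threshold on the adjusted p in any comparison with the reported settings. The markers of plasmacytoid dendritic cells, a strong source of type I interferon, summed to 8870.99 to 9488.92 in SEMA6A, 8407.75 to 9791.33 in SEMA3A, 8723.85 to 9773.86 in SEMA6A+SEMA3A and 7926.89 to 9422.25 in control. Siglech, their defining marker, ranged from 6.41 to 51.7, near or below the array medians, and Irf8, at 6905 to 9117, made up most of the sum. Bst2, a marker of these cells too, was left out of it as a member. Markers of the squamous tumour line summed to 869.885 to 1355.91 in SEMA6A, 1017.77 to 1394.1 in SEMA3A, 870.35 to 1073.35 in SEMA6A+SEMA3A and 822.853 to 1291.25 in control, with Krt14 and Trp63 below the filter. B cell sums ranged from 120.792 to 201.747 over the 12 arrays. T cell sums were 18972.1 to 23044 in SEMA6A, 20355.1 to 22760.3 in SEMA3A, 20567.2 to 21089.5 in SEMA6A+SEMA3A and 19391.8 to 21907.4 in control. Such sums follow their brightest genes. Natural killer cell sums were 8805.41 to 9525.99 in SEMA6A, 8424.4 to 10198.2 in SEMA3A, 9205.29 to 9523.46 in SEMA6A+SEMA3A and 8691.03 to 9269.81 in control. In each of the T cell, macrophage and squamous lists, 1 of the 4 fitted genes had the same 4 highest arrays as Samd9l. Of the 3 fitted natural killer cell genes 0 did, and of all genes 8.3% did. Cd3e, a chain of the T cell receptor complex, was at 5263, 6446 and 5532 in SEMA6A, 5767, 5396 and 4737 in SEMA3A, 4786, 4863 and 4232 in SEMA6A+SEMA3A and 4872, 4039 and 4390 in control. Cd68, a lysosomal protein of macrophages, was at 252, 307 and 299 in SEMA6A, 347, 298 and 243 in SEMA3A, 193, 257 and 235 in SEMA6A+SEMA3A and 251, 185 and 232 in control. Krt18, a keratin of simple epithelium, was at 55.8, 125 and 101 in SEMA6A, 84.4, 121 and 40.9 in SEMA3A, 59, 56.5 and 72.5 in SEMA6A+SEMA3A and 44.5, 49.4 and 56.4 in control. Their interactions were −0.59 ± 0.16 for Cd3e (adjusted p 0.197 in limma), −0.66 ± 0.22 for Cd68 (0.2) and −0.88 ± 0.42 for Krt18 (0.289). Over the alternatives their adjusted p in limma ranged from 0.0152 to 0.427, 0.0313 to 0.427 and 0.0554 to 0.499. Cd3e and Cd68 thus passed in some alternative. The fitted T cell genes were split, with 2 interactions above 0 and 2 below, and Cd8a was at 0.48 ± 0.44 (0.562). The macrophage and squamous lists each had 1 above 0 and 3 below. The part of these markers in the differences of the interferon genes was not tested.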

How the data were processed

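Splenocyte RNA (6 µg total RNA, biotin-labelled cRNA) was measured on 12 single-colour arrays. The authors deposited linear intensity values for each probe set, for which the submitters' processing notes name MAS5. The mean trimmed of 2% at each end was 500 on every array. Of 45101 probe sets, 34945 named 1 gene, 932 several and 9160 none, and 64 were controls, which were left out. Signals were taken as log2(signal + 16), which understates changes of dim genes, and arrays were quantile normalized. A probe set was kept if it exceeded its array's median on at least 3 arrays, and the brightest stood for its gene. Differences of 4 groups of 3 arrays were fitted with limma 3.58.1 in R 4.3.3 (trended prior, 8 residual degrees of freedom, Benjamini-Hochberg at 0.05 over all genes), and the procedure was tested on simulated data. Errors there were drawn independently for each gene and array, so that test cannot show how the fit behaves when arrays stand apart. Differences are given for the 5 members with the smallest p per comparison and up to 2 genes per other list. Alternatives changed the normalization, pseudocount (1 or 64), filter, probe set, prior, array weights, arrays fitted and replicate block, or left out 1 array. Precision is limited by the number of arrays. The members and lists were chosen with earlier results of these data known.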

Additional observations from a re-analysis of the deposited data

How the results depend on the processing

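Over 45 named differences, 951 alternative values were computed. Of these, 923 kept direction and side of the threshold, 28 passed it where the reported value had not, and 0 were reversed. The fit of every probe set was not among them, and other probe sets of Eif2ak2 and Xaf1 had the opposite sign in some comparisons. Most of the named differences were also chosen for their small p on these same arrays. Counts at 0 that moved did so as follows. For SEMA6A against control, leaving out 1 array gave 0 to 512 genes and 0 to 2 members, the highest without SEMA6A replicate 1. For SEMA6A+SEMA3A against control, 1 gene passed with the probe set of the largest interquartile range, 13 with array weights, 1 with only the arrays compared and 0 to 1 when 1 array was left out. Against SEMA3A, array weights gave 620 genes and 2 members. Against SEMA6A, 1 gene passed without the prior trend and 9 with array weights, and leaving out 1 array gave 0 to 381 genes and 0 to 2 members; the median over the members was −0.04 with the 75th percentile filter and 0.04 to 0.17 when 1 array was left out. For the interaction, array weights gave 1847 genes and 7 members, leaving out 1 array gave 0 to 1286 genes and 0 to 6 members, and the median was 0.04 with the 75th percentile filter, 0.28 with the probe set of the largest interquartile range and 0.04 to 0.31 when 1 array was left out. The cause was not tested. Of 18 pairs of arrays with the same replicate number, 1 had a correlation of deviations over 0.1 (range −0.36 to 0.14). Deviations within a group are tied together by the group mean. These correlations therefore cannot tell whether the replicate numbers pair the samples, which stays unknown. With the replicate block, 0 genes and 0 members passed in all 6 comparisons, and Samd9l kept 0.61 log2 units in SEMA6A against control. Members near the array median, Ifit1, Ifit3, Cmpk2 and Oas2, are limited by their signal over background.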
